A study of Mus musculus with 39 samples.

Results

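The genes described here are interferon response genes, a set of 39 listed mouse genes that cells switch on after interferon binds its receptor. A listed gene was read from the array probe set annotated with its symbol and no other, and with the highest mean over all arrays where a gene had several. By that rule 36 of the 39 genes had a probe set, out of 22180 genes on the array with a probe set of 1 symbol. Ifi44 has no listed probe set in the annotation used here, Dtx3l shares its probe set with Parp9, and Gbp2 shares its probe set with Gbp2b, so none of these was read. Mx1 was measured but lay under the level required for testing (a mean above 4.62 on the log2 scale, the 25th percentile of all values, in at least 1 group), and its highest group mean was 4.27. The other 35 genes were tested among 19007 genes.

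The arrays measured RNA of whole mouse testis in 39 biological replicates. The study compared 3 lines of mice with floxed Prkar1a, the gene for the regulatory subunit that holds protein kinase A inactive, with wild-type littermates (WT). In prKO mice (Prkar1a fl/fl with Sf1:Cre) the Cre recombinase is driven by the promoter of Sf1, which is active in the somatic precursors of the gonad and in the adrenal cortex. In srKO mice (Prkar1a fl/fl with Amh:Cre) it is driven by the promoter of Amh, a Sertoli cell gene, and in lrKO mice (Prkar1a fl/fl with Cyp11a1:Cre) by that of Cyp11a1, a gene of steroid-making cells such as Leydig cells. Testes were taken at 2 weeks from 8 WT, 4 prKO, 4 srKO and 4 lrKO mice, and at 2 months from 8 WT, 3 prKO, 4 srKO and 4 lrKO mice. The 3 lines share the WT samples of their age, so their comparisons with WT are not independent of each other.

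Interferons are secreted proteins that signal through paired receptors and JAK kinases to STAT transcription factors. Type I interferon signalling assembles a complex that contains STAT2 and IRF9 and binds the interferon-stimulated response element (ISRE) in promoters. Interferon gamma acts through the gamma-activated site (GAS). The induced genes encode sensors of foreign nucleic acid, enzymes and binding proteins that block viral replication, GTPases that attack intracellular pathogens, and the machinery that presents peptides on MHC class I. In the testis, interstitial macrophages, Leydig cells and Sertoli cells are known to be able to respond to interferon, whereas germ cells are generally described as weak responders.

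The response element is part of the identity of these genes and was looked up in the 250 bases before each gene's start in the RefSeq promoter table (build GRCm38.p6). The ISRE core searched was GAAA, any 2 bases and GAAA again, on both strands, so that TTTC, any 2 bases and TTTC also counted. The GAS searched was TTCNNNGAA, which reads alike on both strands and can overlap the ISRE core. Of the 29 listed genes with a promoter in the table, 14 held the ISRE core (48.3%), against 3.46% of all 27025 genes in the table. The GAS was found in 6 of the 29 (20.7%), against 8.13% of all genes. The promoters below were chosen after that search, among the genes that held a match. They are written on the gene's strand, with the motif in capitals and flanking bases in lower case. Isg15 is shown for its run of 3 overlapping cores, Igtp because the core and the GAS lie side by side, Bst2 because they overlap, and the others because their levels rose in 1 or more of the mutant lines. In the Bst2 line the capitals mark the cores alone (bases 130 to 115 before the start), and the GAS lies at bases 136 to 128. Of the 2 separate cores of Ifit1, the one nearer the start is shown.
Stat2 (chr10:128270264-128270297, plus strand): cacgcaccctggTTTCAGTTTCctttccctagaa
Ifi205 (chr1:174031868-174031901, minus strand): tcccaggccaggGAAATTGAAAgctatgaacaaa
Gbp3 (chr3:142559987-142560026, plus strand, 2 overlapping cores): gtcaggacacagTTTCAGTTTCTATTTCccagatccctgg
Ifit1 (chr19:34640792-34640825, plus strand): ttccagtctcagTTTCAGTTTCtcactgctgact
Irgm1 (chr11:48871423-48871462, minus strand, 2 overlapping cores): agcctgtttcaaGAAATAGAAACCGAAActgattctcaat
Bst2 (chr8:71537575-71537614, minus strand, 2 overlapping cores): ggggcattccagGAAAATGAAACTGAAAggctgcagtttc
Igtp, core (chr11:58199510-58199543, plus strand): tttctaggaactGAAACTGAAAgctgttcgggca
Igtp, GAS (chr11:58199499-58199531, plus strand): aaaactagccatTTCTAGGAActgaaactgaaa
Isg15 (chr4:156200863-156200908, minus strand, 3 overlapping cores): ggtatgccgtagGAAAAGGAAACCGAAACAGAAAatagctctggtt
These matches describe the letters of the window and do not show binding. The promoters of Oasl2, Irf9, Ifih1 and Ifi35 held no core within the window, and Usp18 and Iigp1 are not in the table.

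The values are log2 intensities normalized by the authors, between 2.54 and 13.62, with array medians from 5.81 to 6.02. Prkar1a was lower in prKO than in WT at 2 weeks (log2 difference -0.78, limma adjusted p = 4.5e-07) and at 2 months (-0.30, adjusted p = 0.0078), and lower in srKO at 2 weeks (-0.48, adjusted p = 0.0022). It was higher in the arrays labelled srKO at 2 months (0.24, adjusted p = 0.03) and not called in the arrays labelled lrKO at either age (0.05 and 0.04). These values do not settle the labels, because it is not stated whether the probe set covers the deleted part of the gene, and srKO at 2 months and lrKO stand below for the arrays labelled so. In bulk RNA fewer cells of a type and less RNA per cell cannot be told apart, for Prkar1a or for the genes below. The label on RNA extraction names adrenal glands, whereas the titles and tissue labels name testis. Germ cell markers were those of testis: the mean of 7 spermatid markers was 10.9 to 11.1 in WT at 2 months and 6.03 to 6.22 at 2 weeks, before spermatids form. The mean of 4 adrenal cortex markers was 5.18 to 5.64 in the WT arrays of both ages, and higher in prKO, at 6.7 to 7.5 at 2 weeks and 6.72 to 8.01 at 2 months. At 2 weeks the WT arrays were not alike in the interferon response genes. All of WT replicates 1 to 4 had a higher mean over the 35 genes than any of replicates 5 to 8, 0.09 to 0.22 above the WT mean against -0.19 to -0.10 relative to it, and 31 of the 35 genes were higher in replicates 1 to 4. The median difference between these sets of replicates was 0.24 over the 35 genes, against 0.03 over all genes. In 12 of the 35 genes all of replicates 1 to 4 were above all of replicates 5 to 8, against 8.14% of all genes. At 2 months the same split of replicate numbers did not separate the WT arrays.

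**Figure D1:**
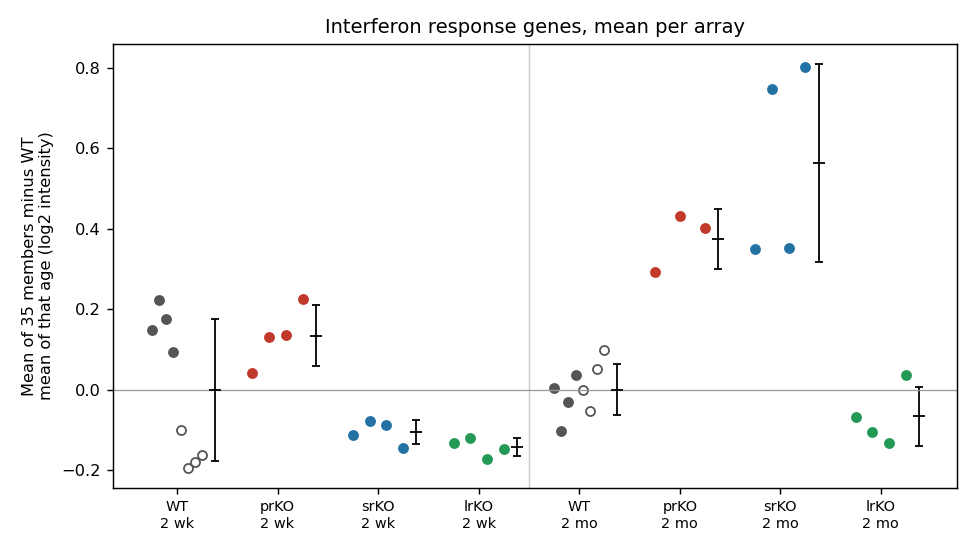
Mean over the 35 tested interferon response genes in each array, as the log2 difference from the mean of the WT arrays of the same age; each point is 1 array, open circles are WT replicates 5 to 8, and the black bar is the group mean ± SD. At 2 months the 4 srKO arrays lie from 0.35 to 0.80 and the 3 prKO arrays from 0.29 to 0.43, above all 8 WT arrays, whereas at 2 weeks the WT arrays themselves spread from -0.19 to 0.22.

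At 2 months the interferon response genes were higher in srKO testis than in WT. Of the 35 tested genes, 26 rose, 0 fell and 9 did not pass the threshold (limma, adjusted p under 0.05 over all 19007 genes), and 0 were lower at an unadjusted p under 0.05. Over all genes, 25.4% were called in this comparison, and 14.7% were called higher. The difference was above 0 for all 35 genes, with a median of 0.46 against 0.03 over all genes tested. These contrasts with all genes are descriptions, since the list was chosen with earlier results of these data known. The array means over the 35 genes stood 0.35, 0.75, 0.35 and 0.80 above the WT mean in srKO replicates 1 to 4, whereas the WT arrays lay between -0.10 and 0.10. All 4 srKO arrays were therefore above every WT array, and replicates 2 and 4 were above replicates 1 and 3. The number of genes called ranged from 22 to 27 when each array was left out in turn.

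Among the sensors and enzymes of foreign RNA and DNA, 4 of 7 rose in srKO: Oasl2, Ifih1, Zbp1 and Oas2. Oasl2 encodes an oligoadenylate synthetase-like protein that binds double-stranded RNA. Its level was 7.21, 7.59, 7.07 and 7.83 in the srKO arrays, against a lowest of 5.70, a median of 6.13 and a highest of 6.68 in WT. The groups did not overlap, and the log2 difference was 1.27 ± 0.17 (SE), a 2.41-fold higher level (limma adjusted p = 2e-05). Ifih1, which encodes the cytosolic sensor MDA5, was at 6.92, 7.36, 6.81 and 7.32 against 6.15 to 6.54 in WT (median 6.32). Again no srKO array reached down to the WT range, and the log2 difference was 0.78 ± 0.12 (adjusted p = 4.7e-05). Zbp1, a sensor of Z-form nucleic acid that can trigger necroptosis, rose by 0.69 and Oas2, a synthetase that activates RNase L, by 0.635. Eif2ak2, which encodes the RNA-activated kinase PKR (0.19, adjusted p = 0.17), Dhx58, which encodes the sensor LGP2 (0.12), and Oas3 (0.05) were not called.

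The 4 transcription factors of the list all rose in srKO. STAT2 is part of the complex that binds the ISRE, and an ISRE core is shown above for its own gene. Stat2 was at 7.23, 7.67, 7.13 and 7.73 in srKO, against 6.35 to 6.62 in WT (median 6.51). The groups were well apart, and the log2 difference was 0.94 ± 0.17 (adjusted p = 0.00044). Irf7, which drives the later wave of interferon alpha genes, was at 6.24, 6.74, 6.26 and 7.33 against 5.75 to 6.17 in WT, a difference of 0.67 ± 0.15 (adjusted p = 0.002), with replicates 2 and 4 the highest. Irf1, an activator of MHC class I genes, rose by 0.33 (adjusted p = 0.0073). Irf9, the DNA-binding part of the complex, rose by 0.45 (adjusted p = 0.04), with srKO replicates 1 and 3 (6.57 and 6.55) within the WT range of 6.11 to 6.78. The call of Irf9 was lost without any 1 of 7 arrays, among them srKO replicate 2 (0.35, adjusted p = 0.17) and srKO replicate 4 (0.35, adjusted p = 0.15).

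Of the ISG15 pathway, Usp18 rose and Isg15 did not pass the test. USP18 removes the ubiquitin-like modifier ISG15 from proteins and blocks signalling at the type I receptor. Its gene was at 6.43, 6.83, 6.43 and 7.37 in srKO, against 5.78 to 6.03 in WT (median 5.97), a difference of 0.82 ± 0.14 (adjusted p = 2e-04) with no overlap. Isg15 was dim in all groups and differed by 0.19 ± 0.10 (adjusted p = 0.18), with a WT range of 4.84 to 5.47 that enclosed the 4 srKO values of 5.10 to 5.40. It holds 3 overlapping ISRE cores in its promoter. IFIT proteins bind foreign RNA at its 5′ end: Ifit1 rose by 0.66 (adjusted p = 0.032) and Ifit2 by 0.375 (adjusted p = 0.0011), while Ifit3 differed by 0.12 and was not called. Ifit2 was dim, with group means of 4.05 in WT and 4.42 in srKO that both lay under the level of 4.62 required for testing, which it passed through prKO at 2 weeks (4.68) and no other group. The rise of Ifit1 rested on replicates 2 and 4 (6.47 and 7.34), since replicates 1 and 3 (6.00 and 5.74) were within the WT range of 5.40 to 6.01. The call did not hold when srKO replicate 2 (adjusted p = 0.087), srKO replicate 4 (difference 0.34, adjusted p = 0.19), WT replicate 1 or WT replicate 2 (adjusted p = 0.055 and 0.056) was left out.

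Among the other antiviral effectors, 6 of the 8 tested genes rose. Rtp4, which encodes a Golgi chaperone of receptors, was at 6.55, 7.02, 6.63 and 7.20 in srKO, against 5.71 to 6.33 in WT (median 5.92), a difference of 0.90 ± 0.14 (adjusted p = 0.00011). Bst2, which encodes the virion tether tetherin, rose by 0.66 ± 0.14 (adjusted p = 0.0018), with srKO replicate 1 (6.89) inside the WT range of 6.37 to 6.96 and the other 3 arrays above it. Xaf1, a proapoptotic gene, rose by 0.46, Trim30a by 0.41, Ifi35 by 0.40 and Rsad2, which encodes the radical-SAM enzyme viperin, by 0.30. The other, dimmer probe set of Ifi35 had means of 5.41 in srKO and 5.27 in WT. Leaving out srKO replicate 4 ended the call of Rsad2 (0.21, adjusted p = 0.07). Cmpk2, the neighbour of Rsad2 that encodes a mitochondrial nucleotide kinase (0.22), and Mx2 (0.24) were not called. Parp9 and Parp14, ADP-ribosyltransferase family members, rose by 0.65 ± 0.11 and 0.87 ± 0.12. Parp14 was at 6.59, 7.32, 6.71 and 7.37, all above the WT highest of 6.40.

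All 4 tested interferon-induced GTPases rose in srKO. These proteins assemble on the vacuoles of intracellular pathogens. Iigp1 was at 6.79, 7.89, 7.29 and 7.60 in srKO, against a lowest of 5.40, a median of 5.64 and a highest of 6.53 in WT. The groups did not overlap, and the difference was 1.58 ± 0.20 (2.99-fold, adjusted p = 7.1e-06). The WT arrays were not even in this gene, with replicates 1 to 4 between 5.40 and 5.57 and replicates 5 to 8 between 5.70 and 6.53. Gbp3, whose promoter holds 2 overlapping cores, rose by 0.67 ± 0.11 (adjusted p = 0.00013), from 5.14 to 5.32 in WT to 5.62, 6.03, 5.49 and 6.36. Igtp rose by 0.695 (adjusted p = 0.0024) and Irgm1 by 0.39 (adjusted p = 0.03), and Irgm1 lost its call when srKO replicate 2, srKO replicate 4 or WT replicate 1 was left out (adjusted p = 0.14, 0.13 and 0.052). In WT at 2 months both genes were dim, with means of 4.54 and 4.40 under the level of 4.62 required for testing.

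Ifi205 had the largest difference of the list in srKO with all arrays, but not without srKO replicate 2. It encodes a protein of the HIN-200 family, DNA-binding proteins encoded by a cluster of closely similar genes on chromosome 1, so signal from a neighbour on its probes cannot be told apart from its own. Its level was 6.39, 8.23, 5.93 and 6.31 in srKO, against 4.65 to 5.43 in WT (median 5.09). All 4 srKO arrays were above WT, replicate 2 by far the most, and the difference was 1.64 ± 0.30 (adjusted p = 0.00044) with all arrays. Without replicate 2 it was 1.13, whereas Iigp1 was at least 1.41 and Oasl2 at least 1.14 on leaving out any 1 array. In antigen processing, Tap1, the peptide transporter of the endoplasmic reticulum, rose by 0.70 (6.91, 7.34, 7.07 and 6.87 against 6.15 to 6.66 in WT) and the immunoproteasome subunit Psmb8 by 0.335. The subunit Psmb9 (0.145) and the chemokine Cxcl10 (0.17), which attracts T cells, were not called.

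**Figure D2:**
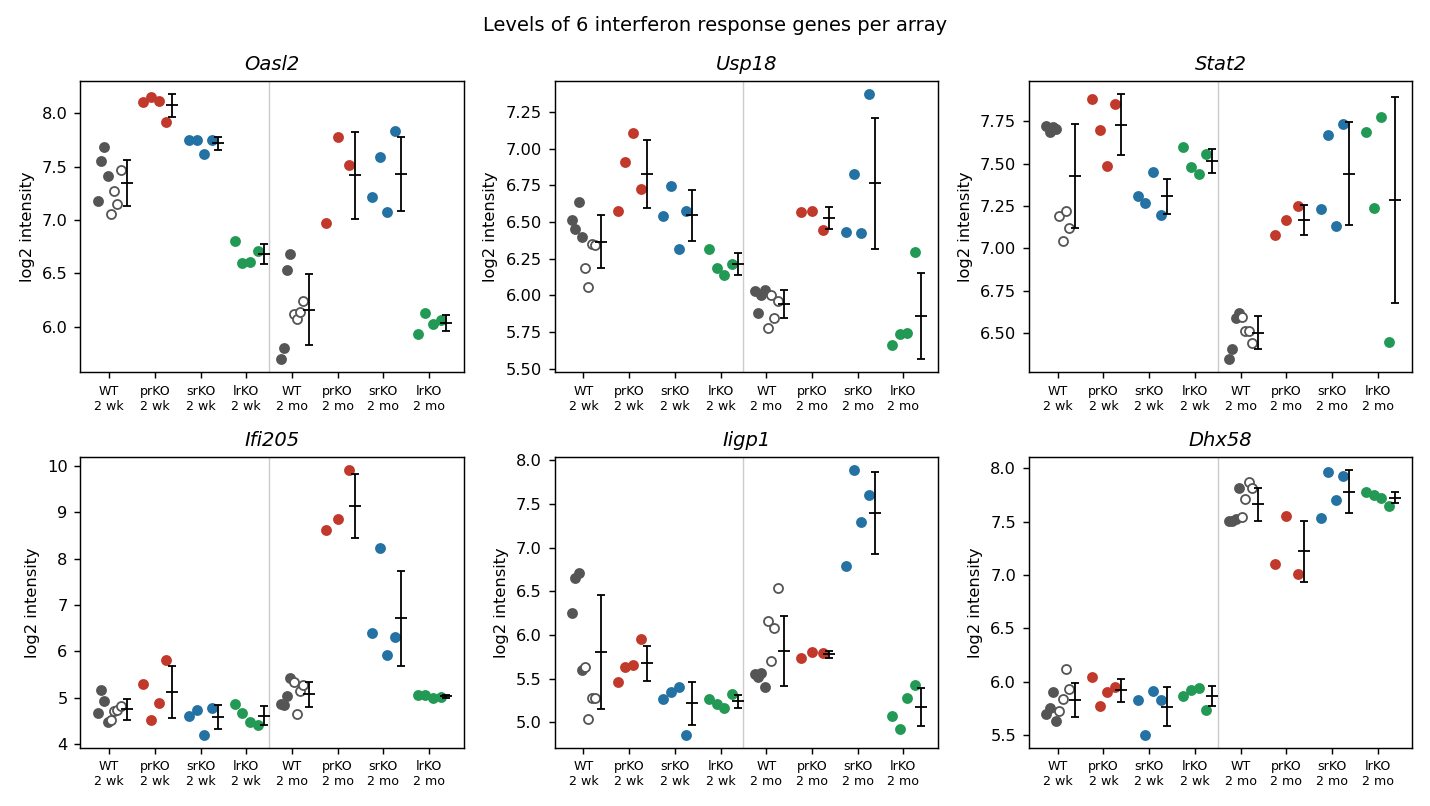
Log2 intensity of 6 interferon response genes in every array of the 8 groups; each point is 1 array, open circles are WT replicates 5 to 8, and the black bar is the group mean ± SD. At 2 months Ifi205 lies at 8.63 to 9.92 in prKO and at most 5.43 in WT, whereas Iigp1 lies at 6.79 to 7.89 in srKO and within the WT range in prKO.

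In prKO testis at 2 months 14 of the 35 genes rose, 1 fell and 20 were not called. In either direction 42.9% of the list was called, below the 48.4% over all genes. As higher, 14 of the 35 were called, where 26% of all genes were called higher. The median difference was 0.25 against 0.02 over all genes. The array means over the 35 genes stood 0.29, 0.43 and 0.40 above the WT mean in replicates 1 to 3, all above the WT arrays. The count ranged from 12 to 17 when each array was left out, and was 8 with array weights in the fit (36.8% of all genes called), where Stat2, Usp18, Irf9, Ifih1, Parp14, Rsad2 and Psmb8 were not called.

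Ifi205 stood apart in prKO. It was at 8.63, 8.85 and 9.92, against 4.65 to 5.43 in WT, a difference of 4.06 ± 0.34 or 16.6-fold (limma adjusted p = 2.5e-08), and no other gene of the list differed by more than 1.26. At 2 weeks its prKO values were 5.29, 4.52, 4.88 and 5.81, which overlapped the WT range of 4.48 to 5.17, and the difference of 0.37 was not called (adjusted p = 0.19). The change at 2 months exceeded the change at 2 weeks by 3.68 (adjusted p = 1.6e-08).

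Of the sensors in prKO, Oasl2 and Ifih1 rose and Dhx58 fell. Oasl2 was at 6.97, 7.77 and 7.51, all above the WT highest of 6.68, a difference of 1.26 ± 0.19 (adjusted p = 2.5e-05). Ifih1 was at 6.73, 6.85 and 6.68 against 6.15 to 6.54 in WT, a difference of 0.43 (adjusted p = 0.0092). Dhx58 was at 7.11, 7.55 and 7.01 against 7.51 to 7.87 in WT, so replicates 1 and 3 were below all WT arrays and replicate 2 was not, and it fell by 0.44 on the log2 scale (adjusted p = 0.0038).

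Among the transcription factors, Stat2 was at 7.08, 7.17 and 7.25 in prKO, above all WT arrays (0.67 ± 0.19, adjusted p = 0.0075). Irf1 rose by 0.34 (adjusted p = 0.0056) and Irf9 by 0.46 (adjusted p = 0.033), and Irf7 was not called (0.24, adjusted p = 0.23). The rise of Irf9 came from prKO replicate 1 (7.28), since replicates 2 and 3 (6.57 and 6.70) were within the WT range, and the call did not hold when that array (0.24, adjusted p = 0.28) or WT replicate 2 or 5 (adjusted p = 0.055 and 0.051) was left out. Leaving out prKO replicate 3 ended the call of Irf1 (0.23, adjusted p = 0.084).

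Usp18 was at 6.57, 6.58 and 6.44 in prKO, all above the WT highest of 6.03 (0.59 ± 0.16, adjusted p = 0.0041). Parp9 was at 6.00, 5.97 and 6.10 against 5.32 to 5.61 in WT (0.60 ± 0.12, adjusted p = 0.00043), and its partner in the list Parp14 rose by 0.42 (adjusted p = 0.014), a call lost without prKO replicate 3 (adjusted p = 0.061). Both genes were above all WT arrays in each prKO array. Of the other effectors, Ifi35 rose by 0.51, Xaf1 by 0.44 and Rsad2 by 0.34, while Rtp4 (0.39, adjusted p = 0.05) and Bst2 (0.24) were not called. The other, dimmer probe set of Ifi35 had means of 5.41 in prKO and 5.27 in WT. Tap1 rose by 0.57 (adjusted p = 0.00073) and Psmb8 by 0.28 (adjusted p = 0.029), and the call of Psmb8 was lost without prKO replicate 2 (adjusted p = 0.19) or replicate 3 (adjusted p = 0.18). The 3 IFIT genes and the 4 GTPases did not pass the threshold. Their largest differences were 0.17 for Ifit2 (adjusted p = 0.1) and 0.335 for Igtp (adjusted p = 0.12), and Iigp1 was at 5.74, 5.81 and 5.80, inside the WT range.

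**Figure D3:**
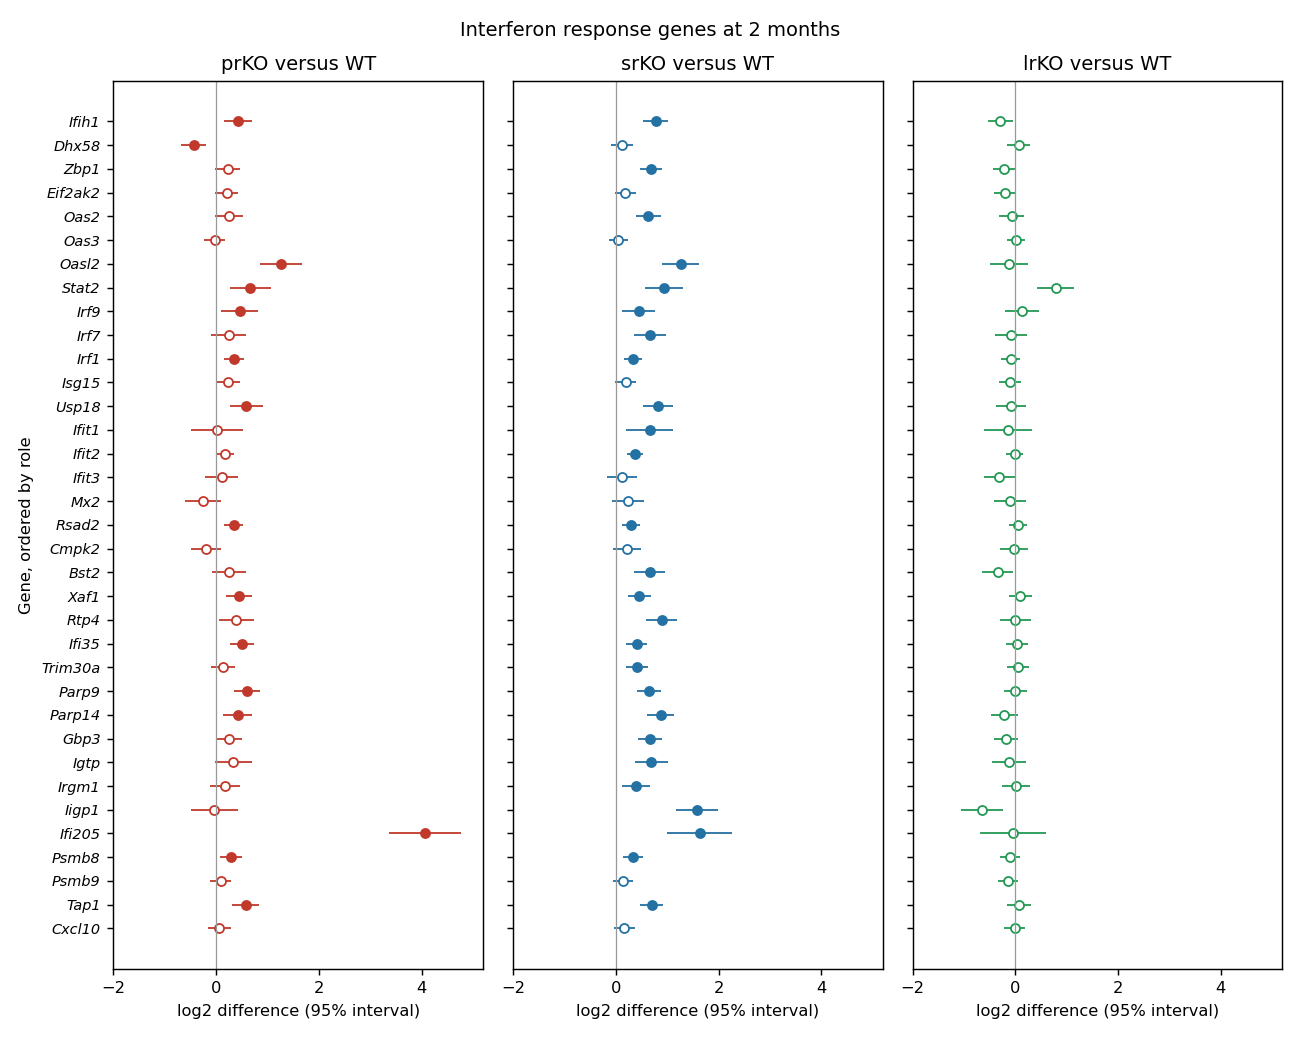
Log2 difference from WT at 2 months for each tested interferon response gene in prKO, srKO and lrKO, with the 95% confidence interval of the limma fit; filled points passed the adjusted p threshold of 0.05. The srKO points lie at or right of 0 for all 35 genes, Ifi205 in prKO lies at 4.06, and no lrKO point is filled.

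The prKO and srKO lines were also set against each other at 2 months, to compare them without the WT samples. Of the 35 genes, 6 were lower and 1 was higher in prKO than in srKO (25.6% of all genes were called, 12.1% as lower). The log2 difference was -1.61 for Iigp1 (adjusted p = 0.00026), -0.56 for Dhx58 (adjusted p = 0.0047), -0.50 for Rtp4 (adjusted p = 0.046), -0.47 for Zbp1 (adjusted p = 0.015), -0.45 for Parp14 (adjusted p = 0.037) and -0.42 for Gbp3 (adjusted p = 0.029). Ifi205 was higher by 2.42 (adjusted p = 0.00032). Oasl2, the gene with the next largest rise in prKO, differed by -0.01 (95% interval -0.47 to 0.445, adjusted p = 0.98). With only these groups in the fit, 2 genes were called, Ifi205 and Iigp1 (5.7% of all genes called), and the count ranged from 4 (without prKO replicate 1, prKO replicate 3 or srKO replicate 4) to 12 (without srKO replicate 3) and 11 (without srKO replicate 1).

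In lrKO testis at 2 months none of the 35 genes was called by limma, against 0.184% of all genes, and 1 gene was higher and 5 were lower at an unadjusted p under 0.05. The median difference was -0.08. The largest was Stat2, at 7.69, 7.24, 7.78 and 6.45 in the lrKO arrays against 6.35 to 6.62 in WT. Replicates 1 to 3 were above every WT array, replicate 4 was within the WT range, and the difference of 0.79 ± 0.17 had an adjusted p of 0.082. Without lrKO replicate 4 it was 1.07 (adjusted p = 0.00054), and with array weights 0.86 (adjusted p = 0.014). Iigp1 differed by -0.64 (adjusted p = 0.32), Bst2 by -0.345 (adjusted p = 0.52) and Ifit3 by -0.31 (adjusted p = 0.59). In the same 4 arrays Usp18 was at 5.66, 5.74, 5.74 and 6.30, and Oasl2 at 5.93, 6.12, 6.02 and 6.06, so replicate 4, low in Stat2, was the highest in Usp18. Between prKO and lrKO, 17 of the 35 genes were higher and 1 was lower in prKO (45.6% of all genes were called, 25.4% as higher), led by Ifi205 (4.10), Oasl2 (1.38), Ifih1 (0.72), Usp18 (0.67), Parp14 (0.63) and Parp9 (0.60). Tap1 (0.50), Ifi35 (0.47), Irf1 (0.44), Psmb8 (0.39), Xaf1 (0.35) and Rsad2 (0.28) followed. Bst2 (0.59), Zbp1 (0.44), Gbp3 (0.43), Eif2ak2 (0.41) and Isg15 (0.34), which were not called against WT in prKO, were among the 17, and Dhx58 was the 1 lower (-0.505). On leaving out 1 array, the call of Xaf1 was lost for any of 5 arrays, that of Isg15 for any of 4, that of Rsad2 for any of 3, that of Psmb8 for prKO replicate 2 or 3, and those of Bst2 and Zbp1 for prKO replicate 2. Stat2 was not called there (-0.12).

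**Figure D4:**
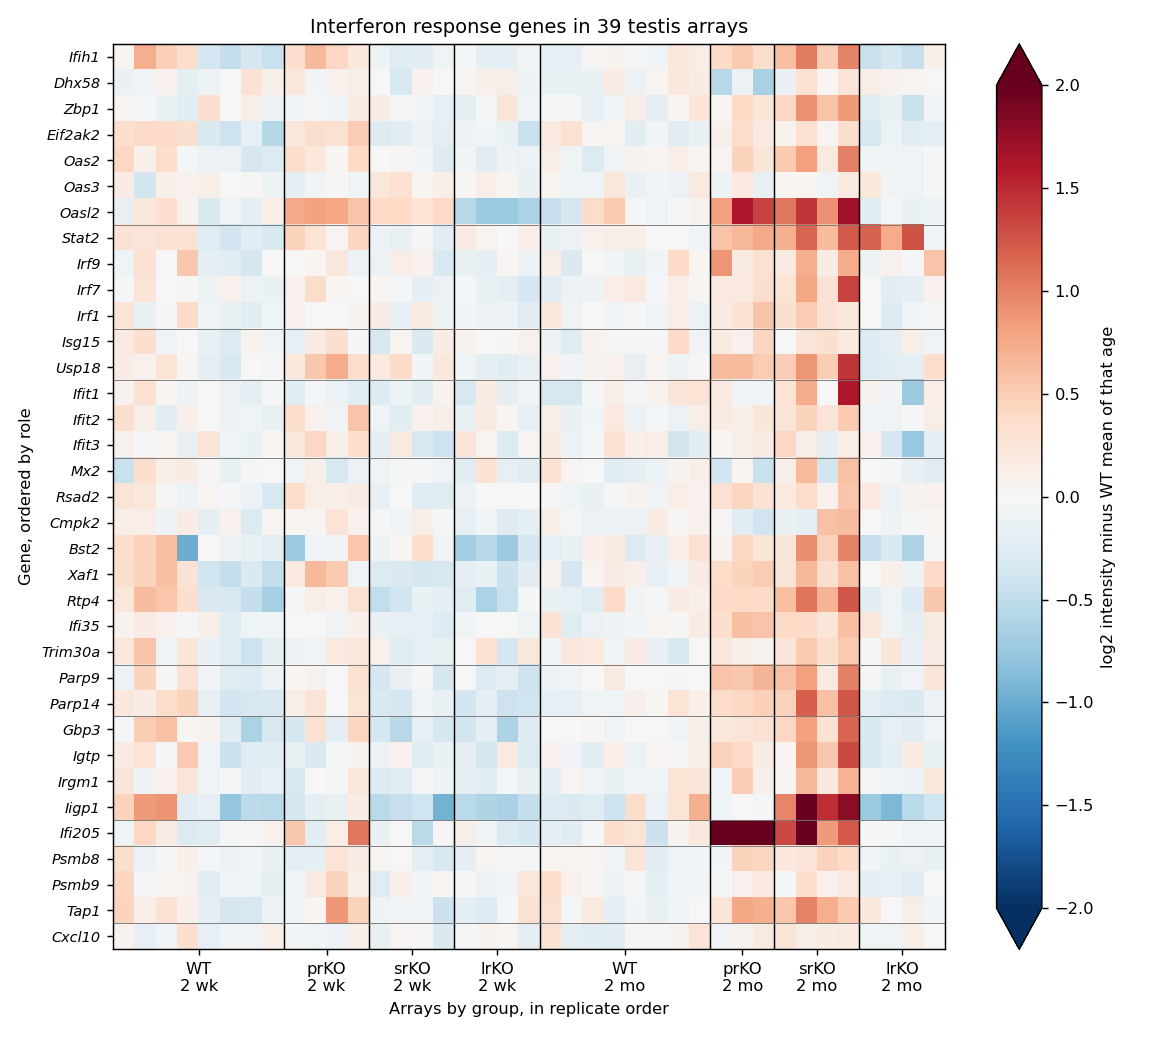
Heat map of the interferon response genes (rows) in the 39 arrays (columns, by group), coloured by the log2 difference from the mean of the WT arrays of the same age, with colour limits at -2 and 2. The srKO arrays at 2 months are higher across most rows, most in replicates 2 and 4. WT replicates 1 to 4 at 2 weeks are higher than replicates 5 to 8 in 31 of the 35 tested genes. The median of this WT difference is 0.24, against 0.03 over all genes.

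At 2 weeks few of the genes differed. In prKO 2 of 35 rose, Oasl2 and Usp18, against 10.5% of all genes called and 7.9% called higher. Oasl2 was at 8.10, 8.15, 8.12 and 7.92 in prKO, above the WT highest of 7.69 (median 7.34), a difference of 0.73 ± 0.10 (adjusted p = 3.7e-05). Usp18 was at 6.57, 6.91, 7.11 and 6.72 against 6.06 to 6.64 in WT, a difference of 0.46 ± 0.11 (adjusted p = 0.0068), with replicate 1 inside the WT range. The next largest differences, of Ifih1 (0.40, adjusted p = 0.17) and Ifi205 (0.37), were not called. The split of the WT arrays bears on this comparison: against WT replicates 1 to 4 alone only Oasl2 was called and Ifih1 differed by -0.0002, whereas against WT replicates 5 to 8 alone 12 genes were called higher. Over all genes, 3.8% and 25.3% were called in these fits, in either direction.

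In srKO at 2 weeks none of the 35 genes was called by limma, against 0.873% of all genes, and 2 were higher and 2 lower at an unadjusted p under 0.05. Oasl2 was at 7.74, 7.75, 7.62 and 7.75, of which 3 arrays were above the WT highest of 7.69, with a difference of 0.37 (adjusted p = 0.077). Iigp1 differed by -0.59, Gbp3 by -0.36 and Xaf1 by -0.31, all with WT arrays spread over more than the difference. Here too the choice of WT arrays moved the count, to 8 lower against replicates 1 to 4 alone and 1 higher against replicates 5 to 8 alone (4.6% and 0.484% of all genes called). In lrKO at 2 weeks 1 gene was lower, against 0.1% of all genes called and 0.0631% called lower. Oasl2 was at 6.80, 6.60, 6.60 and 6.71, below the WT lowest of 7.05, and fell by 0.67 on the log2 scale (-0.67 ± 0.10, adjusted p = 0.0054). With only lrKO and WT in the fit it was not called (adjusted p = 0.064). Bst2 (-0.58), Iigp1 (-0.57) and Gbp3 (-0.36) were not called, and against WT replicates 1 to 4 alone 7 genes were called lower (4.96% of all genes called).

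At 2 weeks the level of Oasl2 was highest in prKO (7.92 to 8.15), then srKO (7.62 to 7.75), WT (7.05 to 7.69) and lrKO (6.60 to 6.80). Only srKO and WT overlapped in that order. Set against each other, prKO exceeded lrKO by 1.39 ± 0.11 (adjusted p = 9.7e-08) and srKO by 0.36 ± 0.11 (adjusted p = 0.042), and the second call was lost without any 1 of 7 arrays. In prKO against srKO, Ifit3 (0.465) and Rsad2 (0.35) were also higher (3 of 35 genes, where 11.8% of all genes were called and 6.9% as higher). In prKO against lrKO, Usp18 (0.61), Parp14 (0.51), Irf7 (0.30) and Cmpk2 (0.28) were also higher (5 of 35 genes, where 16.4% of all genes were called and 10.4% as higher). Without 1 array the first count ranged from 0 to 2 and the second from 2 to 5. Relative to the WT mean, the array means over the 35 genes were 0.04 to 0.23 in prKO, near WT replicates 1 to 4 (0.09 to 0.22). Those of srKO (-0.145 to -0.08) and lrKO (-0.17 to -0.12) lay near WT replicates 5 to 8 (-0.19 to -0.10). Parp14 differed by 0.58 between these sets of WT replicates, and Oasl2 by 0.22. Whether the differences between lines and this split have the same origin was not tested.

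In WT testis, 22 of the 35 genes were lower and 2 were higher at 2 months than at 2 weeks, in a comparison that called 81.6% of all genes and 55% as lower. The median difference was -0.385 against -0.235 over all genes, and centring each array on its median moved the median of all genes by 0.11. All 4 transcription factors fell. Irf9 was at 7.41 to 8.29 in the 8 WT arrays at 2 weeks and at 6.11 to 6.78 at 2 months (log2 difference -1.36), and the differences were -0.92 for Stat2, -0.83 for Irf1 and -0.31 for Irf7. They were -1.19 for Oasl2, -1.10 for Ifih1, -1.03 for Bst2, -0.85 for Ifi35, -0.83 for Gbp3, -0.77 for Xaf1 and -0.73 for Parp9. Rtp4, Parp14, Igtp, Tap1, Irgm1, Usp18, Ifit2, Ifit3, Psmb8, Rsad2 and Cxcl10 were also lower, with differences from -0.55 to -0.175. Dhx58 went the other way, from 5.63 to 6.12 at 2 weeks to 7.51 to 7.87 at 2 months (1.84 ± 0.08, adjusted p = 1.5e-21), and Cmpk2 rose by 0.35. Ifi205, Iigp1, Isg15, Oas2, Oas3, Zbp1, Eif2ak2, Ifit1, Mx2, Psmb9 and Trim30a were not called. The calls of Irf7, Rsad2 and Cxcl10 were lost after centring (adjusted p = 0.074, 0.11 and 0.43), and with WT replicates 5 to 8 alone 15 genes were called (74.9% of all genes).

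Whether the lines changed differently at the 2 ages was tested as the change at 2 months minus the change at 2 weeks. In srKO this difference was above 0 and called for 23 of the 35 genes (17.2% of all genes were called, 8.49% as higher), led by Iigp1 (2.16 ± 0.34, adjusted p = 1.2e-05), Ifi205 (1.81), Rtp4 (1.20), Parp14 (1.09), Stat2 (1.06) and Gbp3 (1.03). Against WT replicates 5 to 8 alone the count was 11 (13.6% of all genes called). In prKO it was called higher for Ifi205, Ifi35 (0.50) and Parp9 (0.49) and lower for Dhx58 (-0.53), 4 of 35 genes where 28.2% of all genes were called. Oasl2, which was higher in prKO at both ages, had a difference of 0.53 between them that was not called (adjusted p = 0.064). In lrKO no gene of the list was called by limma, against 0.1% of all genes, with 2 higher at an unadjusted p under 0.05.

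The rest of the pathway was read from lists of other genes, also chosen with earlier results of these data known. Its counts at 2 months stand against 26% of all genes called higher in prKO (48.4% in either direction) and 14.7% in srKO (25.4%). Of the interferons themselves, 6 of 12 listed genes were tested. Ifnb1, Ifna2, Ifnab and Ifnk lay under the level required for testing, and Ifna5 and Ifnz had no probe set of 1 symbol. Of the 6 tested, 0 were called higher by limma in any line at 2 months (0 at an unadjusted p under 0.05). Ifna1 was lower in prKO (-0.22, adjusted p = 0.049). Of the 9 receptor subunits and kinases, 8 rose in prKO and 3 in srKO at 2 months. Ifnar2, a subunit of the type I receptor, rose by 1.55 in prKO and 0.76 in srKO, and the kinases Jak2 (1.41 and 0.635) and Jak1 (1.15 and 0.57) rose in both. Ifngr1 rose by 1.04 in prKO. Of 5 tested STATs and feedback inhibitors, 1 rose and 2 fell in prKO, and 1 rose and 0 fell in srKO. Stat3, which is activated by many cytokines, was the 1 that rose, by 1.29 in prKO and 0.91 in srKO, while Pias1 (-0.41) and Trim24 (-0.23) fell in prKO, and Socs1 and Socs3 were not called.

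Of 15 tested sensors and adaptors upstream of interferon, 9 rose in prKO and 11 in srKO at 2 months. Mavs, the adaptor of the RNA sensors, rose by 1.06 and 0.78, Tlr3 by 0.97 and 0.70, and Sting1, the adaptor of the DNA sensor cGAS, by 0.87 and 0.935. Of 8 MHC class I and immunoproteasome partners, 7 rose in both lines, among them B2m, the light chain of MHC class I (1.14 and 1.01), and Psme1 (0.825 and 0.72). Of 41 other interferon-induced genes, 15 rose and 5 fell in prKO, so that 48.8% were called, near the share over all genes. In srKO 22 rose and 1 fell (56.1% called), and Ifitm3 (1.43), Rnf213 (1.13), Irgm2 (1.08) and Gbp7 (1.02) were highest after Ifi204 (1.44). Between the lines, Irgm2 (-0.70), Ddx60 (-0.69), Gbp7 (-0.66) and Gbp4 (-0.62) were lower in prKO than in srKO, and 6 of the 9 receptor subunits and kinases were higher. In lrKO at 2 months Gbp9 (-0.61, adjusted p = 0.012) was the 1 gene of these lists that was called.

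Markers of other cell types moved in the same arrays, in lists also chosen with earlier results of these data known. Their counts at 2 months stand against 26% of all genes called higher in prKO (48.4% in either direction) and 14.7% in srKO (25.4%), and several lie near these shares. At 2 months 11 of 12 macrophage markers rose and 1 (Aif1) fell in prKO, and 9 rose and 1 (Aif1) fell in srKO. The mean of the list was 6.67 to 6.85 in the WT arrays, 7.36 to 8.02 in prKO, 7.21 to 7.70 in srKO and 6.68 to 6.89 in lrKO. Lyz2, the lysozyme of myeloid cells, rose by 2.42 in prKO and 1.32 in srKO. Of 9 endothelial markers 9 rose in prKO and 5 in srKO, and of 5 peritubular myoid markers 4 and 2 rose. The means of the endothelial list were 6.00 to 6.25 in WT, 6.76 to 7.60 in prKO and 6.46 to 6.82 in srKO. Of 6 tested Leydig cell markers 4 rose and 1 fell in prKO, and 3 rose and 1 fell in srKO. Among them Cyp11a1 rose by 1.89 in prKO and 0.96 in srKO, and Hsd3b6 was the 1 that fell (-3.15 and -1.17). The means of the Leydig list were 9.02 to 9.55 in WT, 9.72 to 10.3 in prKO and 9.43 to 10 in srKO. Of 4 adrenal cortex markers 3 rose in prKO and 1 in srKO, and Cyp21a1, which encodes the steroid 21-hydroxylase, rose by 3.37 and 1.82. Of 9 Sertoli cell markers 5 rose and 2 fell in prKO, and 1 rose and 2 fell in srKO. Of 7 meiotic spermatocyte markers 0 rose and 6 fell in prKO, and 1 rose and 1 fell in srKO. Of 7 spermatid markers 6 fell and 1 (Odf1, 0.46) rose in prKO, and 5 fell and 0 rose in srKO, with list means of 10.9 to 11.1 in WT, 9.80 to 10.5 in prKO and 9.30 to 10.3 in srKO. Of 5 lymphocyte markers tested, 0 rose in either line (limma, 0 higher at an unadjusted p under 0.05), and 1 was lower in each, Cd4 in prKO (-0.28) and Cd79a in srKO (-0.205), with list means of 5.18 to 5.38 in WT, 5.07 to 5.23 in prKO and 5.15 to 5.34 in srKO, and Cd8a, Ms4a1, Ncr1, Gzma and Gzmb lay under the level required for testing. Of 4 dendritic cell markers 0 were called, and at an unadjusted p under 0.05 1 was higher in prKO and 0 in srKO. The mean of 4 epididymis markers had a median of 5.16 and a highest of 6.93 in the 3 prKO arrays at 2 months, against 5.03 to 5.55 in WT. At 2 weeks its highest was 6.24 in prKO and 5.70 in WT. In prKO at 2 months 0 of the 4 were higher or lower at an unadjusted p under 0.05 (limma). The part of these cell types, or of epididymal tissue, in the levels of the interferon response genes was not tested.

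At 2 weeks in prKO, where Oasl2 and Usp18 rose, 5 of 6 Leydig cell markers, 2 of 4 adrenal cortex markers, 5 of 12 macrophage markers and 4 of 9 endothelial markers rose, against 7.9% of all genes. The median difference was 1.75 over the Leydig list and 0.285 over the macrophage list. The Leydig list means were 10.2 to 10.6 against 8.23 to 9.28 in WT, and the macrophage list means 7.16 to 7.49 against 6.66 to 7.23. Star, the cholesterol transporter of steroid synthesis, rose by 2.98 and Cyp21a1 by 4.22. Of the upstream sensors, Irf8 (0.96, adjusted p = 3.1e-07), Ddx58, which encodes RIG-I (0.56), Tlr7 (0.56), Samhd1 (0.33) and Mavs (0.31) rose there, and so did Ifnar2 (0.45) and Stat3 (0.41). The part of these cells in the rise of Oasl2 and Usp18 was not tested.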

How the data were processed

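Affymetrix GeneChip arrays were hybridised with biotin-labelled cDNA made with the WT PLUS kit, per the labels' protocols. The deposited table holds log2 intensities of 41345 probe sets in 39 arrays, which the authors normalized with RMA, per the submitters' processing notes. The version and settings of RMA and the genome build remain not given in the sources used here. Arrays give no read depth, so their number limits the precision. All columns were mapped to samples by title, and no pair of arrays held identical values.

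Of the probe sets, 23521 had 1 gene symbol in the platform annotation, 1814 had several and 16010 had none listed. For the 1082 genes with several probe sets, the brightest on average over all arrays stood for the gene. Of the interferon response genes this concerned Ifi35, whose other probe set was dimmer and moved less. Its means were 5.63 in WT at 2 weeks and 5.27 in WT at 2 months. In prKO and srKO at 2 months they were 5.41. All 36 readable genes matched the RefSeq table by Entrez identifier, with 0 symbols changed. Genes were tested where at least 1 group mean exceeded the 25th percentile of all values.

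Fits used limma 3.58.1 in R 4.3.3 on the deposited log2 values, with moderated two-sided tests and Benjamini-Hochberg adjustment over all 19007 genes at 0.05. The 4 genotypes of an age were fitted in 1 model, and all 8 groups in 1 model for comparisons between ages, 14 comparisons in all. Errors are standard errors of the fit. The script was tested on simulated data.

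In each comparison the genes past the threshold were named, or the 4 with the largest difference where fewer than 4 passed, and at most 6 called genes of each pathway list. The 39 genes, the pathway lists and the marker lists were chosen with earlier results of these data known. Same-numbered samples of different groups mostly did not deviate together, with correlations from -0.62 to 0.34. The few pairs cannot exclude pairing, and the samples were fitted as unpaired. Alternatives were no filter, averaging a gene's probe sets, centring or quantile normalization on top of RMA, array weights, only the groups compared, the replicate number as a block, WT replicates 1 to 4 or 5 to 8 alone, and leaving out each array. Promoters were taken from the RefSeq table of build GRCm38.p6, which holds 29 of the 39 genes.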

Additional observations from a re-analysis of the deposited data

Results flagged for a closer look

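In 252 sets of values, the highest or lowest array was tested for standing apart from the rest of its group. A set was a gene, or the mean over the 35 genes, in a group of 4 to 8 arrays. Chance meets this test in about 1 in 20 sets. It found 11. At 2 months Usp18 (6.295) and Oas2 (5.372) were high in lrKO replicate 4, and Parp9 was high in WT replicate 4 (5.607). At 2 weeks Zbp1 was high in prKO replicate 4 (6.039), Rsad2 high in prKO replicate 1 (6.315), Psmb9 high in WT replicate 1 (5.334), and Mx2 (5.274) and Parp14 (6.491) high in lrKO replicate 2. In the same age, Oasl2 (7.62) was low in srKO replicate 3, Tap1 low in srKO replicate 4 (6.425) and Rsad2 low in lrKO replicate 1 (5.821).

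For 27 results the difference of a line from WT was not the same at 2 months as at 2 weeks, by limma's test of that difference with adjustment over all genes. In prKO the change at 2 months minus the change at 2 weeks was 3.68 for Ifi205, 0.5 for Ifi35, 0.493 for Parp9 and -0.533 for Dhx58. In srKO it was 2.16 for Iigp1, 1.81 for Ifi205, 1.2 for Rtp4, 1.09 for Parp14, 1.06 for Stat2 and 1.03 for Gbp3. It was 0.931 for Ifih1, 0.899 for Oasl2, 0.864 for both Parp9 and Tap1, 0.798 for Igtp, 0.782 for Ifit1 and 0.768 for Xaf1. It was 0.747 for Irf7, 0.712 for Zbp1, 0.703 for Oas2, 0.644 for Usp18, 0.584 for Ifi35, 0.554 for Irgm1 and 0.527 for Trim30a. It was 0.459 for Rsad2, 0.437 for Psmb8 and 0.395 for Ifit2. The WT arrays at 2 weeks, which fell into higher and lower replicate numbers in these genes, enter each of these values.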

How the results depend on the processing

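The counts of genes called in srKO and in prKO against lrKO at 2 months stayed within 1.5 times of 26 and 18 under every alternative run, with 22 to 27 and 13 to 20 when 1 array was left out. The percentages that follow are the shares of all genes called in either direction in the same fit. With array weights, the count was 4 for prKO (20.2%) and 1 for srKO (11.8%) against WT at 2 weeks. At 2 months it was 8 for prKO (36.8%) and 1 for lrKO (Stat2, 0.763%) against WT, and 4 for prKO against srKO (19.5%). Between lines at 2 weeks it was 9 for prKO against srKO (19.2%) and 9 for prKO against lrKO (25.8%). With only the groups compared in the fit, the count was 0 for lrKO against WT at 2 weeks (0.0158%). In such fits it was 9 for prKO against srKO (12.3%) and 11 for prKO against lrKO (24.4%) at 2 weeks. For prKO against srKO at 2 months it was 2 (5.7%). Same-numbered arrays of different groups mostly did not deviate together, though the few pairs cannot exclude pairing, and the numbers separate the WT arrays at 2 weeks. With the replicate block the counts against WT at 2 weeks were 1 for prKO (3.15%), 7 lower for srKO (3.13%) and 7 lower for lrKO (3.07%). Within an age only WT has replicates 5 to 8, so the block takes these differences from WT replicates 1 to 4. It is therefore not separate from the fits against WT replicates 1 to 4 alone. Between lines at 2 weeks they were 9 for prKO against srKO (12.4%) and 10 for prKO against lrKO (18.4%). The block left the counts against WT at 2 months within 1.5 times. At 2 weeks the counts against WT replicates 1 to 4 alone were 1 for prKO (3.8%), 8 lower for srKO (4.6%) and 7 lower for lrKO (4.96%). Against replicates 5 to 8 alone they were 12 higher for prKO (25.3%) and 1 higher for srKO (0.484%). Between ages, replicates 5 to 8 alone gave 15 for WT (74.9%) and 11 for the change in srKO (13.6%). Replicates 1 to 4 alone gave 10 for the change in prKO (24.7%). Signs turned for Ifih1 in prKO at 2 weeks, which was 0.402 with all WT arrays. It was -0.000227 with the replicate block and -0.000226 against replicates 1 to 4 alone, fits that rest on the same WT arrays. Against replicates 5 to 8 alone, Xaf1 in srKO at 2 weeks was 0.104 and Xaf1 for the change in lrKO was -0.0872. Beyond the choice of WT arrays, the cause of these changes was not tested. When 1 array was left out, the counts ranged from 2 to 3 for prKO, 0 to 1 for srKO and 1 to 1 for lrKO against WT at 2 weeks, and from 12 to 17 for prKO and 0 to 1 for lrKO at 2 months. They ranged from 0 to 2 for prKO against srKO and 2 to 5 for prKO against lrKO at 2 weeks, and from 4 to 12 for prKO against srKO at 2 months. They ranged from 23 to 25 for WT between ages, and from 3 to 7, 18 to 23 and 0 to 1 for the change in prKO, srKO and lrKO. Signal limits the dim genes: in WT at 2 months Ifit2, Igtp and Irgm1 lay under the level required for testing and Trim30a just above it.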
